A study of Mus musculus with 12 samples.

Results

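Glycolysis is the chain of enzymes that splits glucose into pyruvate, and the genes for it, with a set of genes known to respond to low oxygen, were followed in mouse bone marrow stromal cells treated with an androgen, an adipogenic medium or both. The list held 35 gene symbols, chosen by function and with earlier results of these data known. Of these, 25 were for glycolysis (glucose and lactate carriers, the enzymes of the pathway, its regulators and the phosphoglucomutases). The other 10 were for oxygen sensing and other hypoxia targets. Of the 35 symbols, 33 had a row in the deposited tables, and Slc2a3 and Aldoc had none. They made up 34 of the 12028 gene rows, because 2 adjacent gene identifiers carry the symbol Aldoa. Values in all 12 libraries were present for 32 rows. The second Aldoa row and Slc16a3, a lactate exporter, had no value in the ADM+DHT group and stayed under 1 FPKM on average in the other groups, so they were not tested. FPKM is the number of sequenced fragments scaled to transcript length and library size, so it is a level per length.

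The cells were M2-10B4, a stromal line of mouse marrow from a cross of the C57BL/6J and C3H/HeJ strains, and all groups came from this 1 line on day 9. ADM+DHT cells had adipogenic differentiation medium (ADM, with 10% charcoal-stripped serum, insulin at 2 µg/mL, dexamethasone at 1 µM and rosiglitazone at 2 µM) together with 10 nM dihydrotestosterone (DHT), an androgen that binds the androgen receptor. ADM cells had that medium without DHT, DHT cells had 10 nM DHT in the regular growth medium, and control cells had the regular medium alone, whose composition the labels do not give. Each group had 3 libraries, described as biological triplicates, so a p-value here weighs a difference only against the spread between these cultures of 1 line. Insulin, dexamethasone and rosiglitazone are listed only for the adipogenic medium, and whether the serum also differed is not given. The parts of these components in a difference between the media cannot be told apart. The comparisons ask what DHT changed in each medium, what the adipogenic medium changed with and without DHT, and whether the DHT difference was the same in both media.

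As background, hexokinase traps glucose in the cell, phosphofructokinase commits it to breakdown, and pyruvate kinase and lactate dehydrogenase end the chain in pyruvate and lactate. Most of these steps can be run by several isozymes, encoded by separate genes and used in different proportions by different tissues. When oxygen is short, the transcription factor subunit encoded by Hif1a escapes the prolyl hydroxylases encoded by Egln1 and Egln3, which otherwise mark it for degradation, and it raises many glycolysis genes by binding a short core motif in their promoters. This control acts mainly on the protein, so the level of Hif1a RNA does not measure it. Insulin is known to raise glycolysis genes in fat cells, and glucocorticoids such as dexamethasone and PPARG agonists such as rosiglitazone start fat cell differentiation in culture.

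Across the 12 libraries, FPKM summed to between 240651 and 262947 per library over the deposited genes. The deposited tables hold no counts and the sequencing depth of each library is unknown. Correlations between libraries of a group were 0.9895 to 0.9915 (Pearson's r of log2(FPKM + 1), across genes, which are not independent replicates), and no library stood apart. The 13 mitochondrially encoded genes took 13.6 ± 0.313% of summed FPKM in ADM+DHT, 16.8 ± 0.418% in ADM, 10.1 ± 0.450% in DHT and 9.57 ± 0.342% in control cells (SD, n = 3 each). Of the stromal markers, 8 of 9 had a row, and their summed level was 2470 to 2508 FPKM in ADM+DHT, 1780 to 1853 in ADM, 2980 to 3095 in DHT and 2844 to 2920 in control libraries. All 8 adipocyte markers had a row, and summed to 679.7 to 752.7 FPKM in ADM+DHT, 1990 to 2089 in ADM, 24.84 to 26.27 in DHT and 25.04 to 38.52 in control libraries. All 8 markers of cycling cells had a row, and summed to 16.82 to 21.96 FPKM in ADM+DHT, 27.01 to 32.07 in ADM, 152 to 153.3 in DHT and 206.1 to 220.1 in control libraries. Of 6 macrophage and haematopoietic markers, 2 had a row and the defining Ptprc, Adgre1, Csf1r and Itgam had none, and no library summed to more than 4.842 FPKM. None of 4 endothelial markers had a row (0 of 4), nor had Ckm, Myh3 and Myog of the 4 skeletal muscle markers. In such bulk RNA, fewer cells of a kind and less RNA per cell cannot be told apart.

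The summed level of the glycolysis enzymes was highest in control cells and lowest where both treatments were combined. The 16 pathway enzymes with a row summed to 638 ± 15.3 FPKM in ADM+DHT, 848 ± 47.5 in ADM, 817 ± 16.3 in DHT and 1276 ± 58.9 in control cells (SD, n = 3 each), and ADM and DHT libraries overlapped. Not every abundant enzyme kept this order: Aldoa and Ldhb were highest in ADM cells, and Pkm was highest in control cells but lowest in ADM cells. Without Aldoa and Ldhb the other 14 summed to 388 ± 8.53, 455 ± 10.98, 641 ± 11.4 and 1022 ± 42.4 FPKM in ADM+DHT, ADM, DHT and control cells, with no overlap between any groups. Of the 32 rows with complete values, 21 had their highest group mean in control cells, 9 in ADM cells, 2 in ADM+DHT cells and 0 in DHT cells. The lowest mean was in ADM+DHT cells for 15 rows, in ADM cells for 6, in DHT cells for 7 and in control cells for 4. Of the 22 glycolysis rows among them, 16 were highest in control cells. The lowest mean of these 22 was in ADM+DHT cells for 12, in ADM cells for 4, in DHT cells for 4 and in control cells for 2. The counts were not made over all genes, so they do not show that this order is particular to the members.

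**Figure D1:**
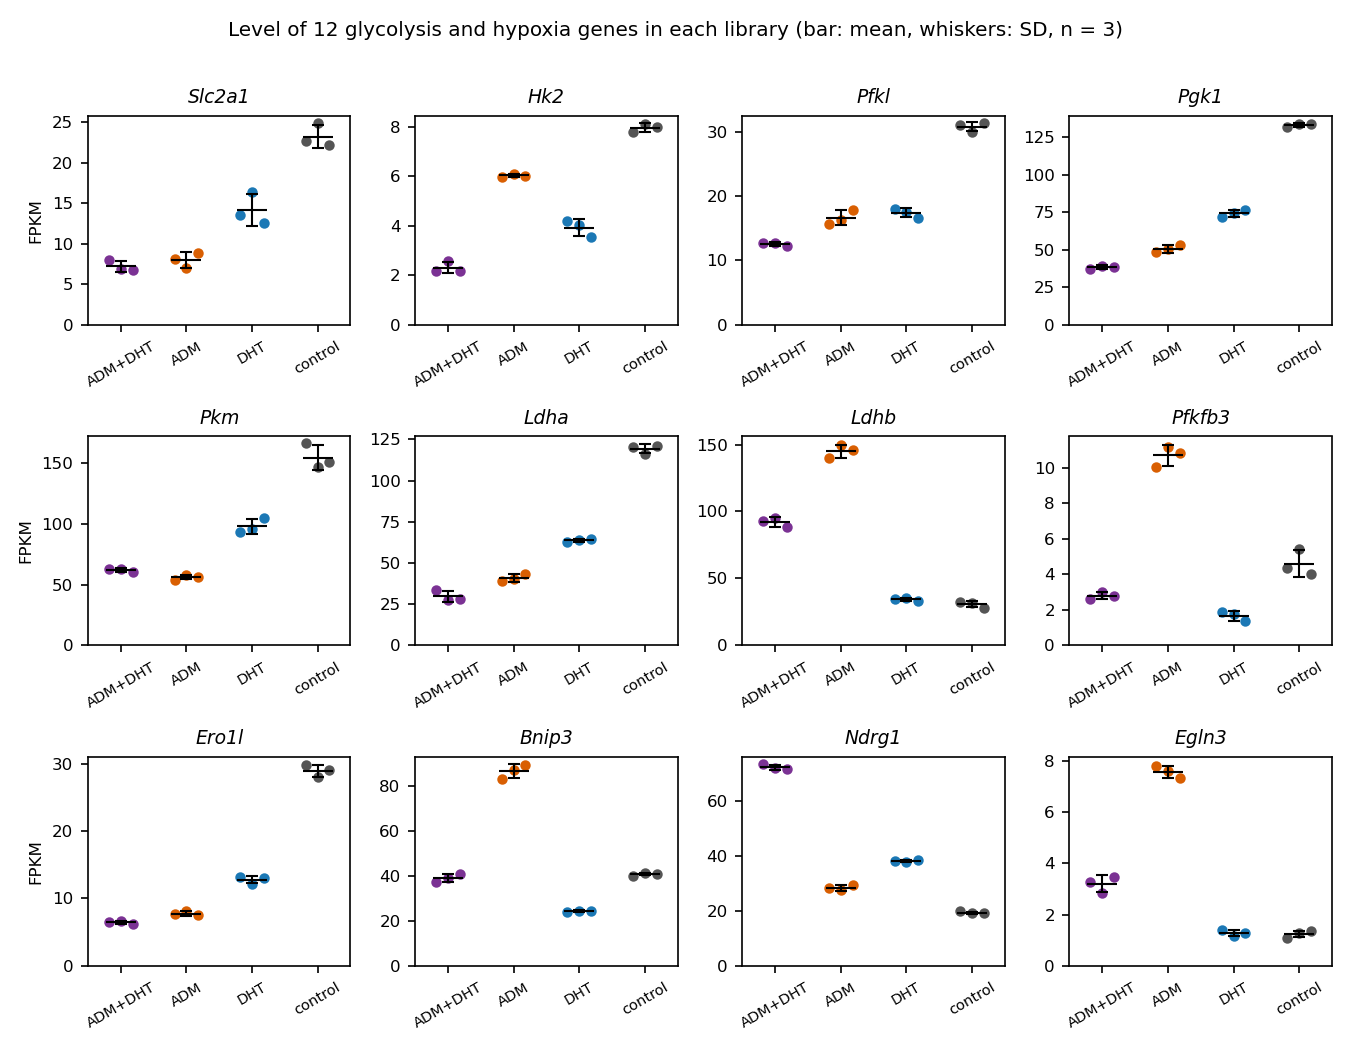
FPKM of 12 members in each library, by group (x axis), with ADM+DHT at the left and control at the right of each panel; points are libraries, bars are means and whiskers are SD (n = 3). Slc2a1, Pfkl, Pgk1, Pkm, Ldha and Ero1l are highest in control cells, Ldhb, Pfkfb3, Bnip3 and Egln3 are highest in ADM cells, and Ndrg1 is highest in ADM+DHT cells at 73.3, 72.2 and 71.5 FPKM.

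The promoters of these genes were read from RefSeq (build GRCm38.p6) as the 250 bases before each annotated start, because many of the members moved together and hypoxia-responsive promoters are known for the HIF core motif. Windows were found for 31 of the 33 symbols with a row, 43 windows in all, some of them overlapping alternative starts of 1 gene, and Bnip3l and Ndrg1 had no entry. The motifs ACGTG and GCGTG, the HIF core, were searched on both strands, and CACGTG, the E-box, holds ACGTG on both strands. ACGTG was present in 53.5% of the member windows, against 16.6% of all 32851 windows, and GCGTG in 51.2%, against 28.2%. At least 1 of them was present in 81.4% of member windows (35 of 43), against 38.6% of all windows. The list includes genes chosen as hypoxia targets, so these shares describe the choice of genes and not their levels in these cells. Member windows were also richer in CpG, with a median of 14 CpG per window against 6 over all windows, and both motifs hold a CpG. CACGTG was in 14% of member windows, against 6.02% of all windows. Shown are 4 windows, in capitals where either motif matches on either strand: those of Pgk1, Ldha and Ero1l, which were lower under both treatments, and that of Ldhb, which moved the other way in ADM. The Pgk1 window (chrX:106186850-106187099, plus strand) holds 2 stretches in capitals and the first Ldha window (chr7:46845554-46845803, plus strand) holds 3, of which 2 are CACGTG. The Ero1l window (chr14:45318573-45318822, minus strand, under the RefSeq symbol Ero1a) holds 3, and the Ldhb window (chr6:142507958-142508207, minus strand) holds 1, a GCGTG. The number of matches did not follow the direction in general: the window of Bnip3, which rose in ADM against control, holds 4 stretches, and those of Tpi1, Gpi1 and Eno2, which fell in ADM and in DHT against control, hold 0. A match is a description of the letters and not evidence of binding.
Pgk1: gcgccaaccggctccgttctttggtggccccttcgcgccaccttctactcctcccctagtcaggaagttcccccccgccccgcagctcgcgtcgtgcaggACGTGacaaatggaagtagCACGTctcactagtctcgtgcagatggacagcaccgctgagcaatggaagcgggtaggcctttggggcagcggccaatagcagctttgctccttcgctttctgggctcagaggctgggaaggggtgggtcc
Ldha: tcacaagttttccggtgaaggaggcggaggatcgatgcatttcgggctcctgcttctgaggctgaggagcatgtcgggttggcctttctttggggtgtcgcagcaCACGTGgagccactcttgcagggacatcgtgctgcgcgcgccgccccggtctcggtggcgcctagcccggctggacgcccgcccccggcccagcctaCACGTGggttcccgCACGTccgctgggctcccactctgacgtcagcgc
Ero1l: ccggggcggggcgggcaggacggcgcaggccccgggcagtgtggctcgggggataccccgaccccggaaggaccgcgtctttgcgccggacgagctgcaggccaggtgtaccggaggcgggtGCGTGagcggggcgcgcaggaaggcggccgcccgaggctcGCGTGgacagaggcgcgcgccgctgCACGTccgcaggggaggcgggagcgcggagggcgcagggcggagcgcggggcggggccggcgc
Ldhb: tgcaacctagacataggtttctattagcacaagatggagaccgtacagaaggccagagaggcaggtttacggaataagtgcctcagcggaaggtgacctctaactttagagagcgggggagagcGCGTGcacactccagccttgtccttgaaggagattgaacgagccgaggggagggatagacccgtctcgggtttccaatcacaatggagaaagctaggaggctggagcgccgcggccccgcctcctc

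DHT added to the adipogenic medium was accompanied by lower levels of most pathway genes and by a higher level of Ndrg1. Of 31 member rows tested in ADM+DHT against ADM, 6 rose and 18 fell (limma on log2(FPKM + 1), adjusted p below 0.05 over 10823 genes), against 17.2% of all genes higher and 16.3% lower. With a further limit of 1.5-fold, 1 rose and 7 fell, against 3.81% and 5.5% of all genes. The median log2 difference was -0.291 over the members and 0.006 over all genes tested. Among the 21 tested glycolysis rows 4 rose and 13 fell, and among the 10 of oxygen sensing and hypoxia 2 rose and 5 fell. In the same comparison all 8 adipocyte markers and 5 of 8 cycling markers fell and 6 of 8 stromal markers rose, and their part in the member differences was not tested.

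At the entry of the pathway, Slc2a1, the widespread glucose carrier also called GLUT1 (chr4:119108711-119137983 in GRCm38, as are all positions given for genes), was at 8.001, 6.88 and 6.82 FPKM in the ADM+DHT libraries, 8.10, 6.97 and 8.85 in the ADM libraries, 13.6, 16.4 and 12.6 in the DHT libraries and 22.6, 24.9 and 22.2 in the control libraries. The ADM+DHT and ADM libraries overlapped and lay below all DHT libraries, which lay below all control libraries. Its difference in ADM+DHT against ADM was -0.12 ± 0.097 (log2, SE, adjusted p = 0.377), which did not pass the test. Slc16a1, a carrier of lactate and other monocarboxylates (chr3:104638668-104658462), had 24.4, 24.2 and 24.7 FPKM in ADM+DHT and 30.7, 30.8 and 30.7 in ADM libraries and fell by 0.32 on the log2 scale (adjusted p = 0.000483). Slc16a3, known for lactate export in glycolytic cells, was listed at 0.0188, 0.0605 and 0.0459 FPKM in ADM, 0.410, 0.193 and 0.227 in DHT and 0.899, 0.599 and 0.770 in control libraries, with no value for ADM+DHT.

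Of the enzymes, Hk2, the hexokinase of muscle and fat that insulin is known to raise (chr6:82725025-82774454), was at 2.17, 2.58 and 2.18 FPKM in the ADM+DHT libraries, 5.98, 6.11 and 6.04 in the ADM libraries, 4.20, 4.03 and 3.54 in the DHT libraries and 7.79, 8.12 and 8.02 in the control libraries. No groups overlapped, and the ADM+DHT libraries were the lowest. Hk2 fell by 1.09 in ADM+DHT against ADM (log2, SE 0.072, adjusted p = 4.05e-05), while Hk1, the hexokinase most tissues carry, had 18.03, 14.4 and 17.4 FPKM in ADM+DHT and 14.8, 14.2 and 15.2 in ADM libraries, which overlapped (difference 0.16 ± 0.085, adjusted p = 0.198). Gpi1, which turns glucose phosphate into fructose phosphate, fell by 0.47. Of the phosphofructokinase subunits, the liver form Pfkl fell by 0.38 with 12.6, 12.8 and 12.2 FPKM in ADM+DHT and 15.7, 16.2 and 17.9 in ADM libraries. The muscle form Pfkm rose by 0.23 and the platelet form Pfkp by 0.24, each by less than 1.5-fold. Aldoa, the aldolase of muscle and most other tissues (chr7:126795234-126800751), was at 156, 163 and 155 FPKM in the ADM+DHT libraries, 219, 239 and 286 in the ADM libraries, 136, 145 and 146 in the DHT libraries and 226, 204 and 240.5 in the control libraries. Its ADM and control libraries overlapped, and its ADM+DHT and DHT libraries lay below both, with DHT the lowest. Aldoa fell by 0.64 in ADM+DHT against ADM (adjusted p = 0.00156). The adjacent row of the same name was at 0.320, 0.136 and 0.0173 FPKM in ADM, 0.0771, 0.284 and 0.349 in DHT and 0.546, 0.899 and 1.31 in control libraries, and how reads were divided between the rows is not given in the sources used here.

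Further down the chain 4 of the abundant enzymes fell in ADM+DHT against ADM. Tpi1, which interconverts the products of aldolase, fell by 0.44, Pgk1, the first step that makes ATP, by 0.39, Pgam1, a phosphoglycerate mutase, by 0.29 and Eno1, the widespread enolase, by 0.35 on the log2 scale. Pgk1 (chrX:106187100-106203699) was at 37.001, 39.4 and 38.5 FPKM in the ADM+DHT libraries, 48.2, 50.3 and 53.2 in the ADM libraries, 71.6, 74.5 and 76.6 in the DHT libraries and 132, 134 and 134 in the control libraries. The 4 groups did not overlap, and the control libraries stood far above the rest. Gapdh, the dehydrogenase between the sugar and the acid stages, had 46.2, 46.6 and 43.5 FPKM in ADM+DHT and 46.6, 48.9 and 48.3 in ADM libraries, and its difference of -0.076 ± 0.042 did not pass the test (adjusted p = 0.210). Eno2, the neuronal enolase, rose by 0.53 (SE 0.10, adjusted p = 0.00749), with 2.50, 2.31 and 2.54 FPKM in ADM+DHT and 1.13, 1.34 and 1.73 in ADM libraries. Pkm, pyruvate kinase, whose isoforms the gene-level values do not separate, was at 62.8, 63.1 and 60.2 FPKM in the ADM+DHT libraries, 54.2, 57.9 and 56.5 in the ADM libraries, 93.4, 95.96 and 105 in the DHT libraries and 167, 147 and 151 in the control libraries. Its groups did not overlap, with ADM lowest, and it rose by 0.14 in ADM+DHT against ADM (adjusted p = 0.0310).

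Both lactate dehydrogenase genes fell in ADM+DHT against ADM. Ldha, the subunit of muscle and of hypoxic cells (chr7:46841475-46855627), was at 33.5, 27.7 and 28.2 FPKM in the ADM+DHT libraries, 38.8, 40.2 and 43.4 in the ADM libraries, 62.7, 63.9 and 64.5 in the DHT libraries and 120.4, 116 and 121 in the control libraries. Its 4 groups did not overlap, and ADM+DHT was the lowest. Ldhb, the heart subunit (chr6:142490249-142507957), was at 92.9, 95.4 and 88.2 FPKM in the ADM+DHT libraries, 139.7, 149 and 146 in the ADM libraries, 34.7, 35.2 and 33.1 in the DHT libraries and 32.1, 31.6 and 27.9995 in the control libraries, again without overlap but with ADM the highest and control the lowest. Ldha fell by 0.44 (SE 0.080, adjusted p = 0.00504) and Ldhb by 0.65 (SE 0.042, adjusted p = 3.59e-05). Pfkfb3, which makes the sugar bisphosphate that activates phosphofructokinase (chr2:11471433-11554077), fell furthest of all members. It was at 2.61, 3.005 and 2.79 FPKM in the ADM+DHT libraries, 10.1, 11.2 and 10.8 in the ADM libraries, 1.87, 1.76 and 1.36 in the DHT libraries and 4.34, 5.44 and 4.02 in the control libraries, so that ADM stood above and DHT below the rest. Its difference in ADM+DHT against ADM was -1.62 ± 0.069 (log2, SE, adjusted p = 5.66e-06). Pfkfb4, a relative with the same kind of activity, had group means under 1 FPKM in ADM+DHT and ADM and was not tested between them. It was at 0.928, 0.639 and 0.602 FPKM in ADM+DHT, 0.882, 0.643 and 0.843 in ADM, 0.877, 0.786 and 0.652 in DHT and 0.898, 1.19 and 0.976 in control libraries, and passed neither in DHT against control (difference -0.19, adjusted p = 0.178) nor in ADM against control (-0.18, adjusted p = 0.143).

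The phosphoglucomutase symbols in the deposited tables are exchanged relative to both GENCODE M21 and RefSeq. The row named Pgm2 (chr4:99929414-99987294) is Pgm1 there, the enzyme that joins glycogen to glycolysis, and the row named Pgm1 (chr5:64092950-64128351) is Pgm2 there, known in human cells as a phosphopentomutase. By the names in the tables, Pgm2 had 25.2, 24.4 and 27.4 FPKM in ADM+DHT and 37.9, 39.5 and 39.4 in ADM libraries and fell by 0.58 (adjusted p = 0.000159), and Pgm1 differed by -0.045 ± 0.084 (adjusted p = 0.718).

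Among the oxygen-sensing genes, Hif1a (chr12:73901375-73947530) was at 61.4, 56.5 and 56.1 FPKM in the ADM+DHT libraries, 42.5, 42.5 and 46.3 in the ADM libraries, 100.4, 99.4 and 99.9 in the DHT libraries and 108, 98.8 and 96.3 in the control libraries. DHT and control libraries overlapped and stood above all ADM+DHT libraries, which stood above all ADM libraries. In ADM+DHT against ADM it rose by 0.40 (SE 0.053, adjusted p = 0.00122). Egln3, a HIF prolyl hydroxylase that is itself raised by hypoxia in many cells (chr12:54178981-54203860), was at 3.29, 2.85 and 3.49 FPKM in the ADM+DHT libraries, 7.81, 7.61 and 7.33 in the ADM libraries, 1.41, 1.17 and 1.28 in the DHT libraries and 1.09, 1.26 and 1.34 in the control libraries. The ADM libraries were the highest and ADM+DHT libraries came next, while DHT and control libraries overlapped near the bottom. Egln3 fell by 1.03 in ADM+DHT against ADM (SE 0.075, adjusted p = 6.61e-05), and Egln1, the main oxygen sensor of most cells, differed by -0.11 ± 0.042 (adjusted p = 0.0828). Egln1 averaged 16.02 ± 0.0850 FPKM in ADM+DHT, 17.4 ± 0.413 in ADM, 21.99 ± 0.621 in DHT and 28.9 ± 0.215 in control cells (SD, n = 3 each).

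Of the 7 other hypoxia targets, Bnip3 and Ndrg1 moved furthest in ADM+DHT against ADM, in opposite directions. Bnip3, a receptor for the removal of mitochondria by autophagy (chr7:138890836-138909519), was at 37.1, 38.9 and 40.6 FPKM in the ADM+DHT libraries, 82.9, 86.9 and 89.03 in the ADM libraries, 23.7, 24.4 and 24.4 in the DHT libraries and 40.02, 41.01 and 40.9 in the control libraries. The ADM libraries were the highest, the ADM+DHT and control libraries overlapped, and the DHT libraries were the lowest. Ndrg1, a gene induced by hypoxia and other stresses and known as an androgen-responsive gene in human prostate cells (chr15:66929321-66969640), was at 73.3, 72.2 and 71.5 FPKM in the ADM+DHT libraries, 28.2, 27.4 and 29.3 in the ADM libraries, 38.1, 37.9 and 38.5 in the DHT libraries and 19.7, 19.2 and 19.04 in the control libraries. No groups overlapped, and in each medium the libraries with DHT were the higher ones. Bnip3 fell by 1.13 (SE 0.046, adjusted p = 4.86e-06) and Ndrg1 rose by 1.32 (SE 0.038, adjusted p = 1.59e-06). Vegfa, the angiogenic growth factor, fell by 0.67 with 15.3, 22.2 and 20.8 FPKM in ADM+DHT and 29.5, 28.8 and 35.8 in ADM libraries, and Bnip3l, a relative of Bnip3, fell by 0.23. Ero1l, an oxidase that forms disulfide bonds in the endoplasmic reticulum (RefSeq symbol Ero1a, chr14:45283087-45318771), was at 6.49, 6.63 and 6.19 FPKM in the ADM+DHT libraries, 7.65, 8.08 and 7.46 in the ADM libraries, 13.1, 12.2 and 12.996 in the DHT libraries and 29.7, 27.96 and 29.02 in the control libraries. Its groups did not overlap, and control stood above the rest by the widest margin. Ero1l fell by 0.23 in ADM+DHT against ADM (adjusted p = 0.0200). The gene Adm, which encodes the vasodilator peptide adrenomedullin and is not to be confused with the medium, differed by 0.13 ± 0.085 (adjusted p = 0.293), and Ankrd37, an ankyrin repeat gene induced by HIF, by -0.15 ± 0.20 (adjusted p = 0.614). Levels of the gene Adm averaged 8.90 ± 0.0980 FPKM in ADM+DHT, 8.09 ± 1.02 in ADM, 12.2 ± 0.589 in DHT and 21.5 ± 0.869 in control cells, and those of Ankrd37 0.838 ± 0.364, 1.04 ± 0.417, 2.03 ± 0.410 and 3.28 ± 0.984 FPKM (SD, n = 3 each). Both were highest in control cells, followed by DHT cells.

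Of the calls in ADM+DHT against ADM, 6 ended when 1 library was left out. That of Pfkp ended without ADM+DHT replicate 2 or 3 or ADM replicate 1, 2 or 3 (adjusted p 0.0535 to 0.117), that of Pfkm without ADM+DHT replicate 1, 2 or 3 or ADM replicate 1 or 3 (adjusted p 0.0716 to 0.0842) and that of Pkm without ADM+DHT replicate 1 or 2 or ADM replicate 1 or 3 (adjusted p 0.0615 to 0.0989). The call of Bnip3l ended without ADM+DHT replicate 1 or ADM replicate 1, 2 or 3 (adjusted p 0.0513 to 0.0710), that of Eno1 without ADM+DHT replicate 1 or 3 or ADM replicate 1 or 3 (adjusted p 0.0703 to 0.0852) and that of Ero1l without ADM+DHT replicate 1 or 3 or ADM replicate 2 (adjusted p 0.0520 to 0.0688). Hk1, not called with all libraries, passed the test without ADM+DHT replicate 2 (adjusted p 0.0198). The number of members that rose was 3 without ADM replicate 1 or 3.

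In the regular medium, too, most members were lower with DHT. Of 32 member rows tested in DHT against control, 1 rose and 23 fell, against 12.7% of 10820 genes higher and 14.1% lower (limma, adjusted p below 0.05). With at least 1.5-fold, 1 rose and 15 fell, against 3.31% and 2.99% of all genes. The median log2 difference was -0.502 over the members and -0.006 over all genes. None of the 22 tested glycolysis rows rose (0 of 22) and 18 fell, 13 of them among the 16 pathway enzymes. In the same comparison all 8 cycling markers fell, 6 of 8 stromal markers rose, and 2 of the 4 adipocyte markers tested fell, and their part in the member differences was not tested.

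Among the enzymes Ldha fell by 0.89 (log2, SE 0.034, adjusted p = 7.16e-06), Hk2 by 0.87 (SE 0.070, adjusted p = 0.000165) and Pgk1 by 0.83 (SE 0.036, adjusted p = 1.02e-05). Tpi1 fell by 0.80, with 46.96, 54.1 and 54.2 FPKM in DHT and 92.7, 85.5 and 93.2 in control libraries. Pfkl fell by 0.79, with 17.97, 17.6 and 16.6 FPKM in DHT and 31.04, 29.96 and 31.3 in control libraries. Neither gene's groups overlapped. The other phosphofructokinase subunits did not pass the test, with 0.16 for Pfkm (adjusted p = 0.160) and -0.065 for Pfkp (adjusted p = 0.524). Pgam1 fell by 0.73, Pkm by 0.65, Aldoa by 0.64, Eno1 by 0.63, Gapdh by 0.47, Hk1 by 0.45, Eno2 by 0.39 and Gpi1 by 0.34. Ldhb differed by 0.17 ± 0.060, which did not pass (adjusted p = 0.0853), although its DHT libraries all lay above its control libraries. The carriers Slc2a1 and Slc16a1 fell by 0.68 and 0.52, and Pfkfb3 fell by 1.07. The Gapdh call ended without DHT replicate 2 or 3 (adjusted p 0.05 to 0.0556), and the Hk1 call without control replicate 1 or 3 (adjusted p 0.0581 to 0.0587).

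Of the oxygen-sensing and hypoxia genes, 5 of 10 fell in DHT against control and 1 rose, against 14.1% and 12.7% of all genes. The 1 that rose was Ndrg1, by 0.95 (SE 0.038, adjusted p = 8.39e-06). Ero1l fell by 1.12 (SE 0.049, adjusted p = 1.02e-05), the adrenomedullin gene Adm by 0.76, Bnip3 by 0.73, Vegfa by 0.65 and Egln1 by 0.38. Hif1a itself differed by -0.013 (SE 0.046, adjusted p = 0.869), with overlapping libraries. Egln3 and Bnip3l also did not pass, with adjusted p of 0.804 and 0.644, nor did Ankrd37 at 0.0851.

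The comparisons ADM+DHT against ADM and DHT against control share no library. Of the 31 members tested in both, 15 fell in both (48.4%, or 15 of the 18 and of the 23 that fell in each), among them Hk2, Aldoa, Ldha, Pgk1, Pfkfb3, Bnip3, Vegfa and Slc16a1. Over the 10405 genes tested in both, 4.36% fell in both. Ndrg1 was the 1 member that rose in both (3.23%, against 6.34% of all genes), and Eno2 and Pkm were called in opposite directions.

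The DHT difference itself was then compared between the media, as an interaction, the DHT difference in adipogenic medium minus that in regular medium, fitted over all 12 libraries. The value was positive for 16 of 32 members and negative for 4 at an adjusted p below 0.05 (limma), against 12.5% and 12.9% of 11152 genes. With at least 1.5-fold it was positive for 5 and negative for 2, against 3.89% and 5.5% of all genes. The median was 0.302 over the members and 0.004 over all genes. For most of the positive members the level fell with DHT in the regular medium, and in ADM it fell by less or did not pass the test. Thus Ero1l had an interaction of 0.89 ± 0.069 (adjusted p = 3.32e-06), with -0.23 in ADM and -1.12 in regular medium, and Ldha one of 0.45 ± 0.092 (adjusted p = 0.00362). For Pkm, at 0.80 ± 0.076, and Eno2, at 0.93 ± 0.12, the DHT difference was called positive in ADM and negative in the regular medium (adjusted p of the interaction 1.55e-05 and 0.000201). For Hif1a the interaction was 0.41 ± 0.072 (adjusted p = 0.00143). The same quantity for Ndrg1 was 0.38 ± 0.048 (adjusted p = 0.000142), its rise with DHT being larger in ADM.

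The 4 negative interactions were those of Egln3, at -1.06 ± 0.11 (adjusted p = 2.28e-05), Ldhb, at -0.81 ± 0.075 (adjusted p = 1.15e-05), Pfkfb3, at -0.55 ± 0.14 (adjusted p = 0.0151), and Bnip3, at -0.40 ± 0.057 (adjusted p = 0.000300). All 4 had their highest level in ADM and fell with DHT there, while in the regular medium Pfkfb3 and Bnip3 fell and Egln3 and Ldhb did not pass. In this test 7 of the 8 adipocyte markers were also negative (median -1.568), and 0 of 8 cycling markers were called. Of 8 stromal markers, 5 were positive and 1 negative. Their part in the member values was not tested. Aldoa, Vegfa, Gpi1 and Hk2 fell with DHT in both media, and their interactions of 0.0060, -0.025, -0.13 and -0.22 did not pass (adjusted p 0.979, 0.938, 0.483 and 0.118), which does not show that the falls were equal. With a pseudocount of 0.1 the interaction of Pfkfb3 no longer passed (adjusted p = 0.0887), and without the intensity trend that of Gapdh did not (adjusted p = 0.0519). The interaction call of Gapdh also ended without ADM+DHT replicate 1 or 2, ADM replicate 1, 2 or 3, DHT replicate 2 or 3 or control replicate 1 (adjusted p 0.0537 to 0.0851), and that of Pfkp without ADM+DHT replicate 2 or 3, ADM replicate 1 or 2, DHT replicate 3 or control replicate 2 (adjusted p 0.0544 to 0.0693). Conversely Eno1 passed without ADM replicate 1 (adjusted p 0.0428), Pgm1 without ADM+DHT replicate 2, ADM replicate 3 or DHT replicate 3 (adjusted p 0.0218 to 0.0435) and Slc16a1 without DHT replicate 2 or control replicate 2 (adjusted p 0.0217 to 0.0221).

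**Figure D2:**
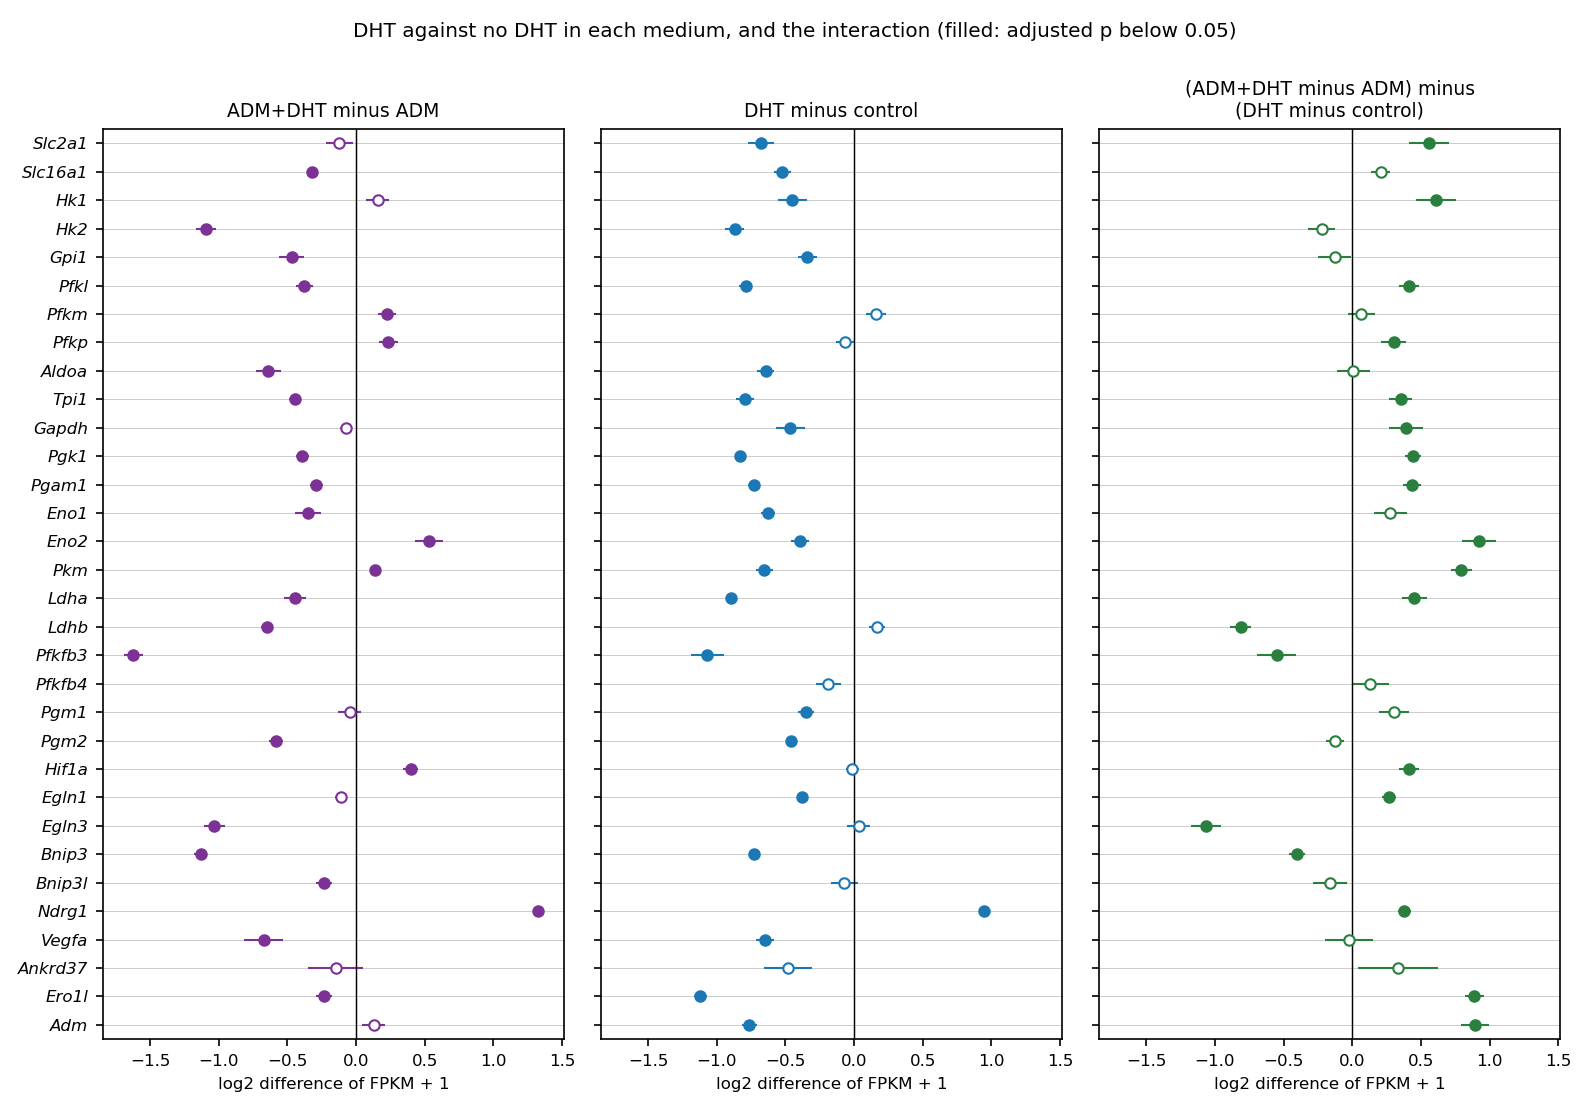
Log2 difference of FPKM + 1 for each member (x axis; whiskers are SE) in ADM+DHT minus ADM, in DHT minus control, and their difference; filled points have an adjusted p below 0.05. Most members lie left of 0 in both media, Ndrg1 lies right of 0 in both at 1.32 and 0.95, and the third panel lies mostly right of 0 with Egln3 and Ldhb at -1.06 and -0.81.

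In the adipogenic medium without DHT most glycolysis genes were lower than in control cells, and a few, Ldhb among them, were higher. Of 32 members tested in ADM against control, 7 rose and 20 fell, against 28.3% of 11074 genes higher and 33.3% lower (limma, adjusted p below 0.05). With at least 1.5-fold, 4 rose and 17 fell, against 13.7% and 14.4% of all genes. The median log2 difference was -0.777 over the members and -0.026 over all genes. Among pathway enzymes 13 of 16 fell, 1 rose and 2 did not pass. The adipocyte markers all rose (8 of 8), the cycling markers all fell (8 of 8), and of 8 stromal markers 4 rose and 4 fell. The part of these markers in the member differences was not tested.

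Ldhb rose by 2.21 (log2, SE 0.059, adjusted p = 1.23e-07). Pkm fell by 1.44, Slc2a1 by 1.44, Eno2 by 1.19, Gapdh by 1.11 and Hk1 by 1.03. Eno1 fell by 1.36, with 60.2, 48.9 and 53.9 FPKM in ADM and 146, 130.1 and 146 in control libraries, which stood far apart. Hk2 fell by 0.35, and Aldoa and Pfkm did not pass the test, at 0.14 and 0.083 (adjusted p 0.260 and 0.431). Pfkfb3 rose by 1.07 (SE 0.10, adjusted p = 6.28e-05), against a fall in most enzymes of the chain it regulates. Pgm2 by the tables' name rose by 0.50 and Pgm1 fell by 0.86. The lactate carrier Slc16a1 did not pass (difference 0.069, adjusted p = 0.256).

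The hypoxia genes went both ways in ADM against control: 4 of the 10 rose and 5 fell. Over all genes, 28.3% were higher and 33.3% lower. Egln3 rose by 1.94 (SE 0.073, adjusted p = 5.46e-07), Bnip3 by 1.07 (adjusted p = 5.87e-07) and Ndrg1 by 0.53 (adjusted p = 3.77e-05). Bnip3l rose by 0.25, a call that ended without ADM replicate 1, 2 or 3 or control replicate 1 or 2 (adjusted p 0.0897 to 0.133). Ero1l fell by 1.78 (SE 0.052, adjusted p = 1.82e-07), the adrenomedullin gene Adm by 1.31, Hif1a by 1.19, Ankrd37 by 1.07 and Egln1 by 0.70. Thus Egln1 and Egln3, which act on the same protein, moved in opposite directions, and Vegfa did not pass (difference 0.20, adjusted p = 0.0839).

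With DHT present in both arms, 9 of 31 members rose and 19 fell in ADM+DHT against DHT, against 23.3% of 10942 genes higher and 26.7% lower (limma, adjusted p below 0.05). With at least 1.5-fold, 4 rose and 10 fell, against 8.12% and 7.94% of all genes, and the median log2 difference was -0.434 over the members and -0.02 over all genes. Ldha and Eno1 fell by 1.08 and 1.08, Pgk1 by 0.94, Ero1l by 0.89, Slc2a1 by 0.88 and Hif1a by 0.78. Ldhb rose by 1.40 (SE 0.042, adjusted p = 6.87e-07), Ndrg1 by 0.90, Egln3 by 0.88, Bnip3 by 0.66 and Pfkfb3 by 0.52. Smaller rises were those of Pgm2 (0.38), Slc16a1 (0.27), Pfkm (0.15) and Aldoa (0.15). The rise of Aldoa did not pass when all 12 libraries shared 1 fit (adjusted p = 0.166). The call of Pfkm ended without ADM+DHT replicate 1, 2 or 3 or DHT replicate 1 (adjusted p 0.0518 to 0.0701) and that of Eno2, which fell by 0.27, without ADM+DHT replicate 2 or DHT replicate 2 or 3 (adjusted p 0.0536 to 0.0585). Vegfa, not called with all libraries (0.17, adjusted p = 0.327), passed without ADM+DHT replicate 1 (adjusted p 0.0159). The adipocyte markers rose for 7 of 8 and the cycling markers fell for 8 of 8 in this comparison, and of 8 stromal markers 4 rose and 4 fell. The part of these markers in the member differences was not tested.

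ADM against control and ADM+DHT against DHT share no library. Of 31 members tested in both, 19 fell in both (61.3%, 19 of the 20 and all 19 that fell in each), against 22.5% of 10778 genes. Ndrg1, Pgm2, Pfkfb3, Ldhb, Egln3 and Bnip3 rose in both (6 members, 19.4%, against 18% of genes), and 0 members were called in opposite directions.

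**Figure D3:**
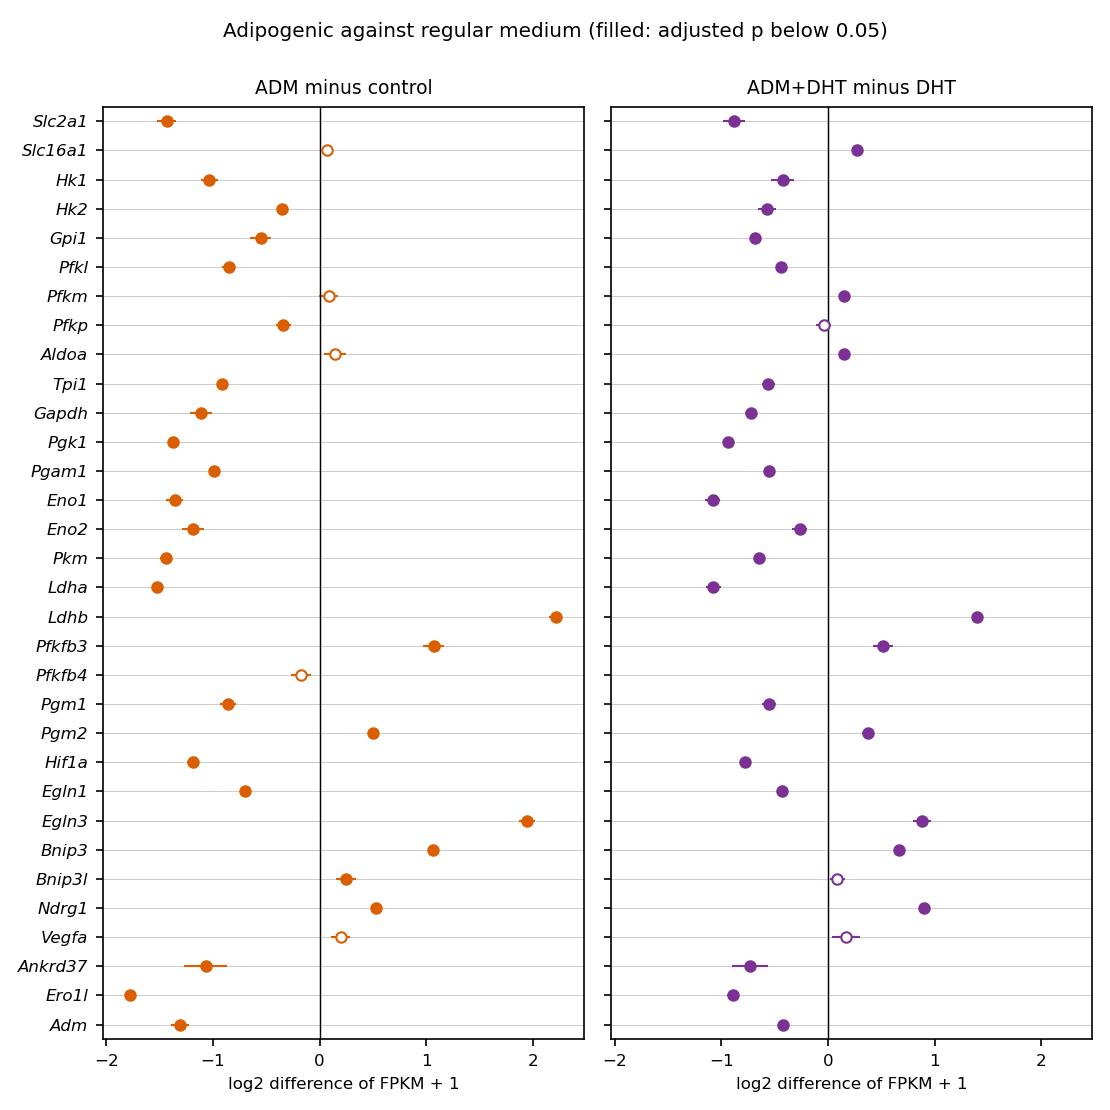
Log2 difference of FPKM + 1 for each member (x axis; whiskers are SE) in ADM minus control and in ADM+DHT minus DHT; filled points have an adjusted p below 0.05. Most members lie left of 0 in both panels, with Ldhb far to the right at 2.21 and 1.40 and Egln3 at 1.94 and 0.88.

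Because FPKM is a level per length, isozymes of a step can be added and their shares taken within a library. With 3 libraries a group, an exact two-sided permutation test of such a share cannot reach a p below 0.1, so shares are given with their spread and without a test. Ldhb made up 73.5, 77.5 and 75.8% of the summed Ldha and Ldhb level in ADM+DHT libraries, 78.3, 78.8 and 77.1% in ADM, 35.6, 35.5 and 33.9% in DHT and 21.04, 21.4 and 18.8% in control libraries. The libraries in adipogenic medium overlapped each other and lay far above DHT, which lay above control. The sum of both genes was 122 ± 5.08 FPKM in ADM+DHT, 186 ± 6.32 in ADM, 98.03 ± 0.927 in DHT and 149.8 ± 2.39 in control cells (SD, n = 3 each). The heart-type subunit is known to favour the direction from lactate to pyruvate, and the muscle type the reverse.

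Hk2 made up 12.4 ± 2.48% of the summed hexokinase level in ADM+DHT, 29.1 ± 0.861% in ADM, 14.8 ± 0.708% in DHT and 20.4 ± 2.03% in control cells (SD, n = 3 each). The ADM share was the highest, and within each medium every library with DHT was below every library without it. Pfkm made up 53.8 ± 0.381% of the phosphofructokinase sum in ADM+DHT, 45.1 ± 2.75% in ADM, 44.5 ± 1.70% in DHT and 30.3 ± 2.37% in control cells, and Pfkl 35.5 ± 0.574%, 46.4 ± 2.50%, 45.3 ± 1.46% and 61.4 ± 2.58% in the same order. Pfkl was thus the larger part in control cells and Pfkm in ADM+DHT cells, while the level of Pfkm stayed between 13.6 and 19.1 FPKM in every library. Pfkp stayed between 8.27% and 10.7% of the sum in group means. Eno2 was a small part of the summed Eno1 and Eno2 level, with 5.76, 4.63 and 6.17% in ADM+DHT, 1.84, 2.66 and 3.11% in ADM, 3.16, 3.55 and 3.37% in DHT and 2.92, 3.44 and 2.88% in control libraries, the ADM+DHT libraries lying above all others. Eno1b, a gene very similar in sequence to Eno1, was not part of this sum.

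**Figure D4:**
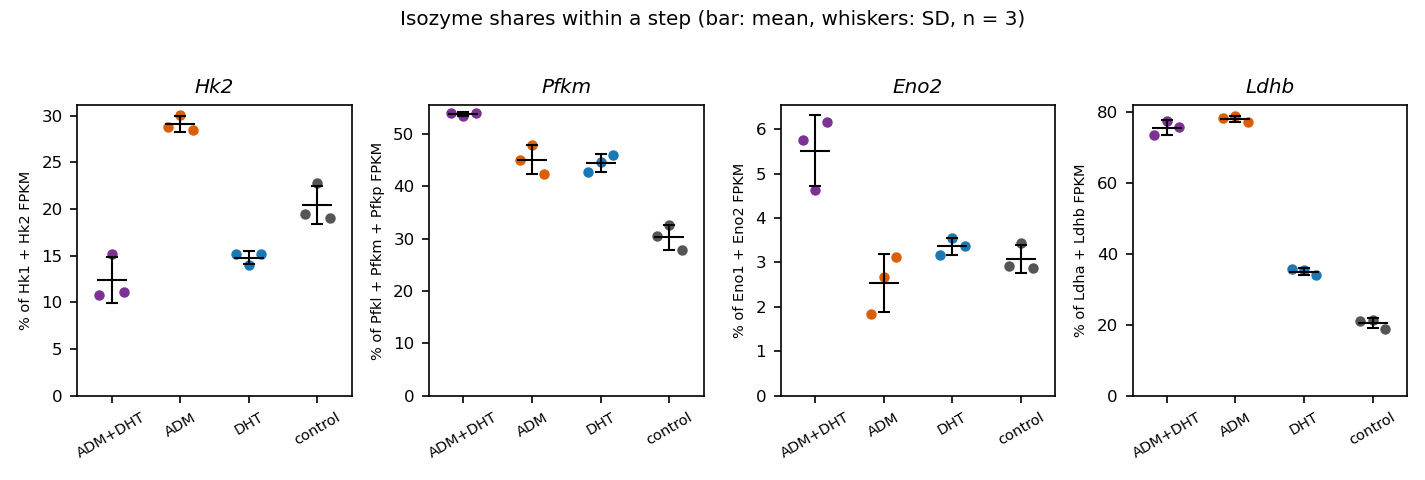
Share of 1 isozyme in the summed FPKM of the members of its step, in percent, for Hk2, Pfkm, Eno2 and Ldhb, in each library by group (x axis). Bars are means and whiskers SD (n = 3). Ldhb lies at 75.6% and 78.1% in ADM+DHT and ADM cells, above 35.03% in DHT and 20.4% in control cells.

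Further genes of the pathway, 34 in a separate list, were called in both directions. In ADM+DHT against ADM, 5 of the 18 tested rose and 6 fell (median 0.035), against 17.2% and 16.3% of all genes. Slc2a4, the insulin-responsive glucose carrier of fat and muscle, fell by 1.17, Mpc2, a subunit of the mitochondrial pyruvate carrier, by 0.78 and Pfkfb1, the liver relative of Pfkfb3, by 0.74. Slc2a4 was at 0.466, 0.674 and 0.536 FPKM in ADM+DHT, 2.48, 2.34 and 2.65 in ADM, 0.0313, 0.0317 and 0 in DHT and 0, 0 and 0 (listed at 0) in control libraries. It stood highest in ADM libraries, the medium in which Slc2a1 was lower than in control cells. In DHT against control 3 of 16 rose and 2 fell (median -0.015), against 12.7% and 14.1% of all genes. In ADM against control 6 of 18 rose and 5 fell (median 0.098), against 28.3% and 33.3% of all genes, with Slc2a4 called higher, Galm, the aldose mutarotase, up by 1.77 and Eno1b lower, at -1.47. In ADM+DHT against DHT 4 of 16 rose and 3 fell (median -0.006), against 23.3% and 26.7% of all genes. Eno1b, a gene very similar in sequence to Eno1, averaged 11.5 FPKM in ADM+DHT, 14.5 in ADM, 26.6 in DHT and 41.98 in control cells, the order of Eno1 itself. Reads of Eno1 and Eno1b, and those of Gapdh and other glycolysis genes with processed copies, may have been divided between the copies, so their levels are uncertain to that extent.

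Of 51 other hypoxia-responsive and HIF pathway genes, 18 of 44 tested rose and 4 fell in ADM+DHT against ADM (median 0.107), and 14 of 46 rose and 13 fell in DHT against control (median -0.035). In ADM against control 19 of 46 rose and 22 fell (median -0.112), and in ADM+DHT against DHT 21 of 45 rose and 12 fell (median 0.04). Of all genes tested, 17.2% rose and 16.3% fell in ADM+DHT against ADM, 12.7% and 14.1% in DHT against control, 28.3% and 33.3% in ADM against control, and 23.3% and 26.7% in ADM+DHT against DHT. The other HIF alpha subunit genes were both lower in control cells. Epas1, the HIF-2 alpha gene, averaged 18.5 ± 0.328 FPKM in ADM+DHT, 10.4 ± 0.0185 in ADM, 5.03 ± 0.149 in DHT and 1.62 ± 0.147 in control cells (SD, n = 3 each), the reverse of Hif1a between the media, and rose by 0.77 in ADM+DHT against ADM. Hif3a, which encodes a subunit with forms that inhibit HIF, averaged 10.5 ± 0.654 FPKM in ADM+DHT, 12.7 ± 0.717 in ADM, 3.21 ± 0.173 in DHT and 0.0603 ± 0.0187 in control cells. It rose by 3.69 in ADM against control and by 1.99 in DHT against control. Plod1, a collagen lysyl hydroxylase, rose by 1.05 in ADM+DHT against ADM. Ddit4, an inhibitor of mTOR signalling that glucocorticoids are known to raise, rose by 2.53 in ADM against control and by 2.12 in ADM+DHT against DHT. In that last comparison Angptl4, a lipase inhibitor, rose by 2.61, and in ADM against control Mif, a cytokine gene, fell by 2.20.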

How the data were processed

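RNA was poly(A)-selected and sequenced as stranded, paired-end libraries, per the labels' protocols. Per the submitters' processing notes, FastQC, cutadapt, HISAT2 and StringTie were used with the build GRCm38, and no version or setting is given. The authors deposited 4 tables, 1 per pair of groups, holding FPKM per library per the file headers, and these values were joined by gene identifier (12028 genes; a library's values were identical in each table, and 1 line of each table had been emptied for this work). The authors' deposited group means on the log2 scale equalled the mean of log2(FPKM + 1), and their fold (ratio), p-value and q-value columns, from a test that no header names, were not used. FPKM values showed no steps of whole reads (at most 4.82% of low genes at the commonest ratio), so the depth is unknown, no count test was run and precision rests on 3 libraries a group. A share of all FPKM taken by 1 set of genes lowers the FPKM of the others, and rescaling was tried for this reason.

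From the FPKM values, log2(FPKM + 1) was tested with limma 3.58.1 (R 4.3.3, empirical Bayes with an intensity trend, two-sided), on the 6 libraries of each pair of groups and on all 12 for the interaction, for genes whose mean reached 1 FPKM in either group (any group for the interaction). The Benjamini-Hochberg adjusted p covers all genes tested, and differences of low genes are understated on this scale. A gene is said to rise or fall where that p is below 0.05. Groups came from the sample titles and treatment labels, and 1 title spelled differently was read as ADM+DHT replicate 2. All members are named or counted, and from other lists up to 3 called genes per comparison with the smallest adjusted p are named, with Eno1b's levels given as the near copy of Eno1, and 1 gene that the rule names is not reported here. Members and lists were chosen with earlier results of these data known. The fits were tested on simulated data. Of 34 member rows, 29 had the same start and end in GENCODE M21, and other tools were pandas 2.3.3, numpy 2.4.6 and matplotlib 3.10.9 in Python 3.11.15. Alternatives were a pseudocount of 0.1, other filters, 1 fit on all libraries, no trend, other scalings, a replicate block, a 1.5-fold limit and leaving out each library.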

Additional observations from a re-analysis of the deposited data

Results flagged for a closer look

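The results below stood out because the DHT difference was not the same in the adipogenic as in the regular medium, by the interaction (the DHT difference in adipogenic medium minus that in regular medium) on the log2(FPKM + 1) scale, at an adjusted p below 0.05 in limma. Their causes were not tested. Among the enzymes the interaction was 0.93 for Eno2, 0.80 for Pkm, 0.61 for Hk1, 0.45 for Ldha, 0.44 for Pgk1, 0.44 for Pgam1, 0.41 for Pfkl, 0.39 for Gapdh, 0.35 for Tpi1, 0.30 for Pfkp and -0.81 for Ldhb. It was 0.56 for the carrier Slc2a1 and -0.55 for the regulator Pfkfb3. Among the oxygen-sensing and hypoxia genes it was 0.89 for Ero1l, 0.89 for the adrenomedullin gene Adm, 0.41 for Hif1a, 0.38 for Ndrg1, 0.27 for Egln1, -0.40 for Bnip3 and -1.06 for Egln3.

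In the other lists the interaction was -1.20 for Slc2a4 (listed at or near 0 in DHT and control libraries), -0.84 for Mpc2 and -0.89 for Pfkfb1, -2.25 for Hif3a, 0.84 for Higd1a and 0.67 for P4ha1, and -0.74 for H6pd, -0.58 for Pygb and -0.88 for Gyg. P4ha1 encodes a subunit of collagen prolyl hydroxylase, and Higd1a a mitochondrial protein induced by hypoxia. Of the 18 other glycolysis genes tested, 3 were positive and 4 negative, and of the 46 other hypoxia genes 13 were positive and 6 negative, against 12.5% and 12.9% of all genes.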

How the results depend on the processing

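With a limit of 1.5-fold added, fewer members were called: 1 higher and 7 lower in ADM+DHT against ADM, 4 higher in ADM against control, 4 higher and 10 lower in ADM+DHT against DHT, 15 lower in DHT against control, and 5 positive and 2 negative interactions. In 1 fit on all 12 libraries 2 members rose in DHT against control, since Ldhb passed (adjusted p = 0.0358). Leaving out 1 library gave 3 to 5 higher and 15 to 18 lower members in ADM+DHT against ADM, 6 to 7 and 20 to 21 in ADM against control, 8 to 9 and 18 to 19 in ADM+DHT against DHT, 1 and 22 to 23 in DHT against control, and 14 to 16 positive and 4 negative interactions. Over 203 differences of members and named genes, no called value changed sign. Of the results under alternatives that keep all libraries, 1731 kept their side of the threshold, 18 lost the call and 7 gained one, and without 1 library 1397 kept it, 55 lost it and 8 gained one. The cause was not tested.

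Calls were lost for Pkm (adjusted p 0.0619 in 1 fit and 0.0753 without a trend) and Bnip3l (0.062 in 1 fit) in ADM+DHT against ADM, for Bnip3l in ADM against control (0.064 without a trend and 0.0599 with median centring), for Pfkm (0.0996 in 1 fit and 0.0751 with quantile normalization) and Aldoa (0.166 in 1 fit) in ADM+DHT against DHT, and for the interactions of Gapdh (0.0519 without a trend) and Pfkfb3 (0.0887 with a pseudocount of 0.1). Calls were gained for Egln1 in ADM+DHT against ADM (0.0317 in 1 fit), for Aldoa (0.00649 with quantile normalization) and Vegfa (0.0489 when rescaled without mitochondrial genes) in ADM against control, and for the Slc16a1 interaction (0.0451 with a minimum of 5 FPKM). Under each scaling tried, the median over all genes stayed between -0.035 and 0.019. Median centring and quantile normalization hold this median near 0 by design. Replicate numbers did not pair the libraries: deviations of same-numbered libraries correlated between -0.139 and 0.145, and 1 to 3 of 6 libraries in a comparison correlated best with their own number. With replicate number as a block, 8 calls were lost and 2 gained: 4 members rose and 17 fell in ADM+DHT against ADM, 6 and 20 in ADM against control, 8 and 18 in ADM+DHT against DHT, 1 and 23 in DHT against control, with 16 positive and 4 negative interactions. The unknown depth leaves no counting error for single libraries.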

Other observations

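Genes of the pentose phosphate and glycogen branches, 21 in a further list, mostly rose in ADM against control: 12 of 17 tested rose and 2 fell (median 0.452, limma), against 28.3% of all genes higher and 33.3% lower. H6pd and G6pdx, which open the pentose phosphate pathway in the endoplasmic reticulum and the cytosol, rose by 1.58 and 1.08 there, and Pygb, the brain glycogen phosphorylase, by 0.76. G6pdx was at 56.4, 60.1 and 56.6 FPKM in ADM+DHT, 87.3, 88.5 and 92.7 in ADM, 33.9, 32.4 and 33.3 in DHT and 44.7, 39.96 and 41.1 in control libraries. The ADM libraries were the highest.

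In ADM+DHT against ADM 1 of 18 rose and 11 fell (median -0.374), against 17.2% and 16.3% of all genes. Gys1, the muscle glycogen synthase, fell by 1.02, G6pdx by 0.62, and Pgm5, a phosphoglucomutase relative without the usual activity, rose by 1.09. In ADM+DHT against DHT 6 of 17 rose and 3 fell (median 0.091), against 23.3% and 26.7% of all genes, with H6pd, G6pdx and Gys1 at 0.84, 0.78 and 0.49. In DHT against control 3 of 17 rose and 5 fell (median -0.156), against 12.7% and 14.1% of all genes, with Pgm5, H6pd and Pygb up by 1.92, 0.85 and 0.46. In the interaction, 0 of 18 were positive and 10 negative (median -0.338), against 12.5% and 12.9% of all genes.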
